A study of Mus musculus with 12 samples.

Results

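Of 2909 p53 peaks listed for wild-type (WT) mouse back skin, 502 (17.3%) had their midpoint within 5 kb of the start or the end of a protein-coding gene. These near-end peaks were chosen by position alone, against a RefSeq gene table of 21887 protein-coding genes. Their strength and sequence played no part in the choice. Overlap with other peaks was not used either, but it is tied to position where those peaks also gather near gene ends. The other 2407 WT p53 peaks are called distal here, 1005 of them inside genes and 1402 outside. Of these, 2402 lay farther away, and the rest, counted as outside genes, had no gene end listed on their sequence.

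The tumour suppressor p53 is a transcription factor that is stabilised after DNA damage and binds DNA as a tetramer. Its response element is a pair of 10-letter repeats, called decamers here, that lie next to each other or a few bases apart. Targets such as Cdkn1a, Bax and Mdm2 carry such elements at their starts or in their first intron, and through them p53 arrests the cell cycle, starts apoptosis and induces its own inhibitor. Histone H3 trimethylated at lysine 4 (H3K4me3) marks the starts of active or poised genes.

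The samples were chromatin immunoprecipitates from back skin of mice aged 8 to 10 weeks, all labelled as irradiated with 5 Gy, T0 samples included. Antibodies to p53 were used on K17KO and on WT skin and antibodies to H3K4me3 on WT skin, each at T0 and 6 h with 2 samples per group. The labels do not say what the K17KO allele is or how it was made, nor whether samples of a group came from separate mice. The peak lists name no time point, replicate or control, so T0 and 6 h could not be compared, and WT is inferred for the p53 list that names no genotype. As a check of the tissue label, H3K4me3 peaks lay within 5 kb of 6 of 19 suprabasal epidermis genes (31.6%), 3 of 13 basal keratinocyte genes (23.1%) and 5 of 26 hair follicle genes (19.2%). They lay near 2 of 20 dermal fibroblast genes, 1 of 8 melanocyte genes, 1 of 7 adipocyte genes and 2 of 20 genes of other organs, against 21.5% of all protein-coding genes, so these lists do not set skin clearly apart.

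The sequences that bear most directly on p53 binding are those in which a promoter window overlapped by a near-end peak holds a p53 element. RefSeq gives 21263 windows of 300 bases, 250 before and 50 after a start, for 17492 protein-coding genes. A near-end peak overlapped 44 of these windows in 42 peaks. In 4 of the 42 (9.52%) a window held adjoining decamers with at most 2 mismatched letters, the C and G of each core intact, and 0 or 1 base between them. The same was true of 145 of all 21263 windows (0.682%), of 6 of 1038 H3K4me3 peaks that overlap a window (0.578%) and of 3 of 85 such K17KO p53 peaks (3.53%). This form of the search was set after the values were seen, and the decamer reads the same on both strands. For 3 of the 4 peaks the 250 bases before the start are printed 5′ to 3′ on the strand of the gene, in build GRCm38.p6 (the coordinates of mm10), with the element in capitals.
Cdkn1a: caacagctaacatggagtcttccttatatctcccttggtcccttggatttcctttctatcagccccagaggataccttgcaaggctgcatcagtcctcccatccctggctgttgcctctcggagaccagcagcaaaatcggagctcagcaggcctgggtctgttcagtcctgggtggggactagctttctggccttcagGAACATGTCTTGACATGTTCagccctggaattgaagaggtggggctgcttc
Rps27l: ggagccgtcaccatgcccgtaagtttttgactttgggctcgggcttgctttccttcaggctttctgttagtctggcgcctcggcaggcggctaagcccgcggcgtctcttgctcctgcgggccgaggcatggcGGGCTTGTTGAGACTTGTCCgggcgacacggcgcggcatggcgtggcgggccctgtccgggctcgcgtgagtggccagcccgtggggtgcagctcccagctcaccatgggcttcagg
Rps19: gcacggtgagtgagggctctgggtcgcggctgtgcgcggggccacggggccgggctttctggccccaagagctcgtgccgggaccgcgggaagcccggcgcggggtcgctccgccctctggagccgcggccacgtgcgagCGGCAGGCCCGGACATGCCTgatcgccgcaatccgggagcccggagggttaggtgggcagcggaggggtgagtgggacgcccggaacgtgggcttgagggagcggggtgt

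The element of Cdkn1a lay at chr17:29090928-29090947 on the plus strand, began 51 bases before the start and had 1 mismatch in 20 letters. Its middle was 15.5 bp from the summit of the p53 peak. Rps27l had its element at chr9:66946296-66946315 on the plus strand, with 1 mismatch and 21.5 bp from the summit. That of Rps19 was at chr7:24884803-24884822 on the plus strand, with 2 mismatches and 25.5 bp from the summit. The 4th peak was at Prkar1a, which encodes a regulatory subunit of protein kinase A. There the element spanned the RefSeq start of its window, at chr11:109649362-109649381 on the plus strand, with 2 mismatches and 2.5 bp from the summit. All 4 elements thus lay inside their peaks, within 25.5 bp of the summit. The windows of Rps27l, Rps19 and Prkar1a that hold them belong to RefSeq starts downstream of the gene's outermost start. That of Cdkn1a belongs to the outermost start, and the window of its other, downstream start lay 2425 bp from the peak. Such windows cover only 42 of the 502 peaks, and a sequence for the rest was not used here.

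Counting every near-end peak with a promoter window within 500 bp, 7 of 92 had such an element, and these 20 or 21 bases are printed to set the elements inside a peak beside those outside one, capitals marking the decamers. The first was Prkar1a, inside its peak.
Prkar1a: GAACACGACCGGGCATGCTC
Ccng1: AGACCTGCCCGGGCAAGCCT
Bax: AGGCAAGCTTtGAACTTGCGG
Ms4a10: GATCTAGTCCAGACATGCAT
The Ccng1 element, at chr11:40755462-40755481 on the minus strand, lay 249 bp outside its peak. The Bax element, at chr7:45467079-45467099 on the minus strand, lay 317 bp outside its peak, and that of Ms4a10, at chr19:10974781-10974800 on the minus strand, 423 bp outside. The window at Phlda3, overlapped by one of the strongest near-end peaks, had at least 5 mismatches in every such pair. That window shared only 82 bp with the peak of 428 bp and did not reach its summit, where the sequence was not read. The 3 windows of Bbc3 had at least 3, 6 and 8 mismatches, and each lay outside the peak.

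Other motifs were counted in the same windows. A single decamer without a mismatch stood in 5 of the 42 peaks' windows (11.9%), against 7.37% of all windows. Perfect decamers with 0 to 13 bases between them stood in 1 of 42, that of Cdkn1a, where 12 bases separate them and the second is shared with the element printed above. Over all windows, 10 of 21263 had such a pair (0.0470%), against 2.38% of the 42. GGGCGG, searched on both strands like every motif here, was in 64.3% of the 42 and in 46.2% of all windows. The same letters were in 71.4% of windows overlapped by H3K4me3 peaks. The median GC content of whole windows was 63.7% for the 42, 64.0% for those overlapped by H3K4me3 peaks and 56.3% over all windows. An overlap of 1 bp was enough, so these values describe the windows and not the sequence under the peaks. CCAAT was found in 26.2% against 38.2%, TATAAA in 7.14% against 12.6%, TGANTCA in 2.38% against 6.99%, and CANNTG in 54.8% against 69.0% of all windows. No test was made of these shares.

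Near-end peaks were densest beside gene starts. The strand of the nearest gene was known for 399 of the 488 peaks off chromosome 18 (81.8%). Of these, 214 were nearest a start, 112 inside the gene and 102 before it, and 185 were nearest a 3′ end, 104 inside the gene and 81 beyond it. Within 1 kb of that end lay 86 of the 214 start peaks (40.2%) and 47 of the 185 3′-end peaks (25.4%). This is a description, since distance to a gene end chose the peaks. The comparison was added after the values were seen, and its p-value is not used here. Per kb of distance, the first 0.5 kb of the gene held the most, 76 peaks per kb from 38 peaks, followed by the 0.5 kb before the start with 50 per kb from 25 peaks. The 0.5 kb on either side of 3′ ends held 26 per kb from 13 peaks each. Peaks of 1 list are not replicates, so p-values and intervals throughout cover counting error only, not the spread between mice.

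**Figure D1:**
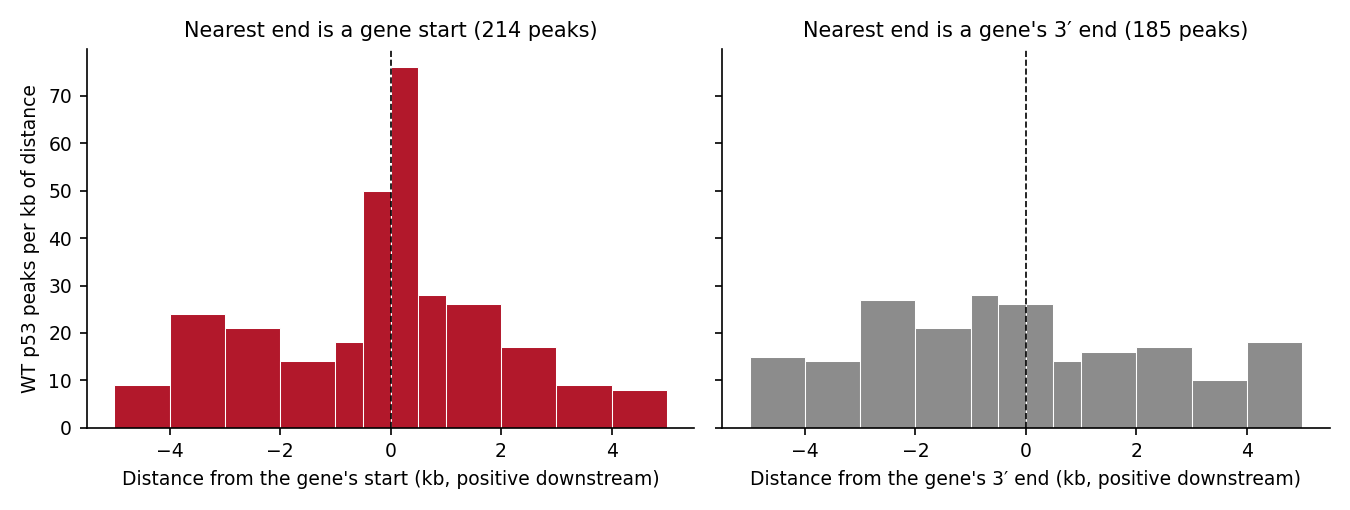
WT p53 peaks per kb of distance (vertical axis) against the distance of the peak midpoint from a gene's start (left, 214 peaks) or 3′ end (right, 185 peaks), in kb and positive downstream. The bars at the start reach 50 peaks per kb just before it and 76 just after it, while those at the 3′ end stand at 26 on either side.

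Set against the amount of sequence at each distance, the excess over the surroundings lay close to the gene end. The WT p53 list had 2.49 peaks per Mb of sequence within 0.5 kb of a gene end and 1.51 at 0.5 to 1 kb. From 1 to 5 kb the density was 1.22 to 1.59 per Mb, and at 5 to 10 kb, outside the near-end limit, 1.41. The K17KO p53 list ran from 4.04 peaks per Mb within 0.5 kb to 0.566 at 4 to 5 kb. The H3K4me3 list ran from 61.5 to 1.68 per Mb over the same distances. Near-end peaks made up 37.9% of the K17KO p53 list (417 of 1101) and 74.0% of the H3K4me3 list (4046 of 5464). Of the 502 near-end WT peaks, 160 lay within 1 kb and 103 within 0.5 kb. The last inside the limit were near Acyp2 (4974.5 bp, fold 4.72) and Tmem132c (4995.5 bp, fold 2.90), and the first outside it near Wipi1 (5032 bp, fold 4.52) and Zdhhc1 (5077 bp, fold 4.16).

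**Figure D2:**
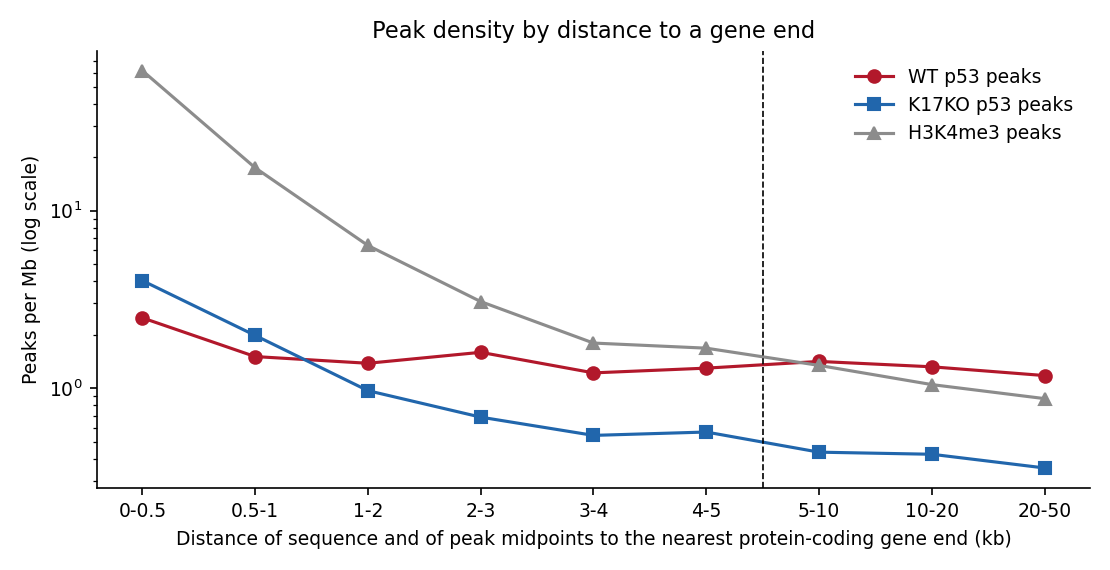
Peaks per Mb of sequence (vertical axis, log scale) by distance to the nearest protein-coding gene end in kb, for the WT p53, K17KO p53 and H3K4me3 lists, with a dashed line at the 5 kb limit. The WT p53 line falls from 2.49 to 1.51 after the first 0.5 kb and then stays between 1.18 and 1.59.

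Near-end peaks were within 5 kb of 596 genes, 2.72% of the protein-coding genes. Of 73 genes in 5 lists of p53 targets, family members and regulators, 13 (17.8%) had one. In 15 lists of skin cell types, other organs and general processes it was 6 of 248 genes (2.42%). All these lists were written with earlier results of these data known, so the contrast is a description without a test. The 14 peaks at these 13 genes had a median fold enrichment of 4.30 and a median of 11 fragments at the summit. The other 488 near-end peaks had a median fold of 3.90 and a median of 7 fragments. Fold enrichment is the authors' value. It was read as the fragments at the summit plus 1, divided by the caller's background plus 1. It is therefore lower than the plain ratio of the fragments and background printed here. A q-value of at most 0.01 was reached by 5 of the 14 and 57 of the 488.

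Among targets that arrest the cell cycle, 3 of 10 had a peak. Cdkn1a, which encodes the kinase inhibitor p21, had a peak at chr17:29090757-29091094, 54 bp before its outermost start. It had 15 fragments over a background of 1.44 and a fold of 6.57. Ccng1, which encodes cyclin G1, had one 213.5 bp inside its start (chr11:40754979-40755213) with 10 fragments and a fold of 4.40. Plk2, a Polo-like kinase gene, had 2 peaks before its start, at 418 bp with 7 fragments and a fold of 3.86 and at 2203 bp with 8 fragments and a fold of 4.72. For all 4 peaks of this group the nearest gene end was a start, at Plk2 up to 2203 bp away.

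Apoptosis genes were reached in 5 of 20 cases. Bax, which encodes a protein that opens the mitochondrial outer membrane, had a peak at chr7:45466448-45466762, 298.5 bp inside its start, with 19 fragments over 1.98 and a fold of 6.70. Phlda3, which encodes a repressor of Akt signalling, had 18 fragments over 1.93 and a fold of 6.49 at chr1:135766053-135766480. Bbc3, the gene of the BH3-only protein PUMA, had 17 fragments over 1.98 and a fold of 6.03 at chr7:16308421-16308916. Rps27l, a ribosomal protein S27-like gene, had 18 fragments over 3.21 and a fold of 4.51, at chr9:66946147-66946442, 1670 bp inside its outermost start. The peak at Steap3, a metalloreductase gene, lay 1992.5 bp beyond the 3′ end with 7 fragments and a fold of 4.20. The first 3 of these genes, with Cdkn1a, had the 4 highest folds of the 14.

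Among family members and feedback regulators, 2 of 10 had a peak. Trp53inp1, a p53-induced nuclear protein gene, had 11 fragments and a fold of 4.02 at 396.5 bp from a gene end. Cop1, which encodes a ubiquitin ligase of p53, had 6 fragments and a fold of 3.51 at 3075.5 bp before its start. Metabolism and growth genes were reached in 3 of 23 cases: Ephx1 (epoxide hydrolase, fold 3.62), Slc19a2 (thiamine transporter, fold 3.69) and Ulk1 (autophagy kinase, fold 3.02). The Ulk1 peak lay 4220 bp from that gene and 380 bp inside the start of its neighbour Pus1. None of the 10 DNA repair targets had a near-end peak, a list too short for an absence to be read. Nor did Mdm2, Trp53 or Krt17, whose closest WT p53 peaks were 73.5 kb, 113.5 kb and 61.8 kb away.

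**Figure D3:**
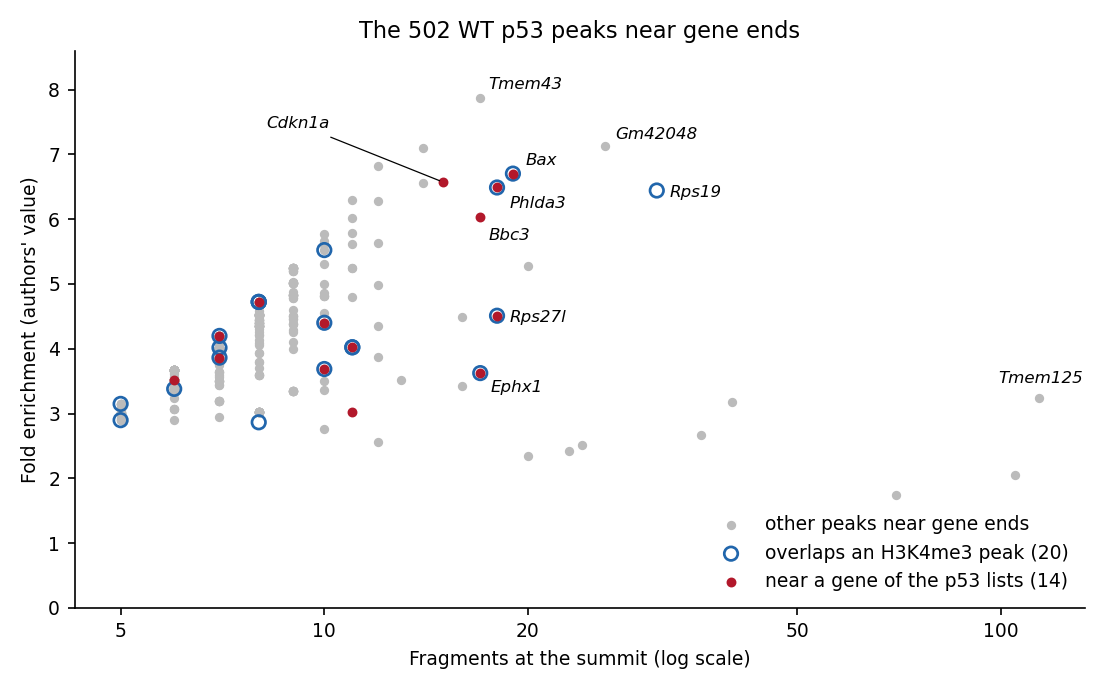
Fold enrichment (vertical axis, the authors' value) against fragments at the summit (horizontal axis, log scale) for the 502 near-end WT p53 peaks. Red points mark the 14 peaks near genes of the p53 lists and blue circles the 20 that overlap an H3K4me3 peak; Bax, Phlda3, Bbc3 and Cdkn1a have folds of 6.03 to 6.70, and Rps19, marked only by a circle, 6.44.

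Several of the strongest near-end peaks were at genes outside these lists. The peak of highest fold, 7.88 from 17 fragments over 1.29, lay 3048 bp inside the start of Tmem43, which encodes a nuclear envelope protein (chr6:91476558-91476953). A weaker peak, with 8 fragments and a fold of 4.13, lay 1922 bp from an end of the same gene. Next came the gene model Gm42048, with a fold of 7.13 from 26 fragments, Dyrk3, a protein kinase gene, with 7.10 from 14 fragments, and Sc5d, a sterol desaturase gene of cholesterol synthesis, with 6.82 from 12 fragments. Bax and Cdkn1a were 5th and 6th, Ankrd13b 7th (6.56), Phlda3 8th, Rps19 9th and Nol4 10th (6.30). By −log10 p the first 3 were Tmem125 (26.5), Rps19 and Gm42048. Rps19, which encodes a protein of the small ribosomal subunit, had 31 fragments over a background of 3.97 at chr7:24884658-24885029 and a fold of 6.44. Among all 2909 WT peaks, Tmem43 was 5th by fold and Rps19 was 6th by −log10 p.

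Near-end peaks overlapped H3K4me3 peaks more often than distal peaks did. An overlap of at least 1 bp was found for 20 of 502 near-end peaks (3.98%, Clopper-Pearson 95% interval 2.45 to 6.09%) and 8 of 2407 distal peaks (0.332%, 0.144 to 0.654%). The odds ratio was 12.4 (5.21 to 32.8; two-sided Fisher's exact test, Benjamini-Hochberg adjusted p = 1.87e-09 over 6 shares), against 0.963% of the whole list. The overlapping peaks stood mostly at starts: 17 of 214 start peaks (7.94%) and 1 of 185 3′-end peaks (0.541%) overlapped, an odds ratio of 15.8 (2.43 to 667; Fisher's exact test, adjusted p = 0.00202). H3K4me3 marks gene starts, so this comparison cannot set the overlap apart from the place of the mark. Of the 14 peaks at p53 list genes 8 overlapped (57.1%), and of the other 488 near-end peaks 12 (2.46%). Without peaks at p53 list genes the share was still higher than in distal peaks, 12 of 488 against 8 of 2407 (odds ratio 7.55, adjusted p = 9.50e-05, Fisher's exact test). H3K4me3 peaks are themselves dense at gene ends, with 74.0% of them (4046 of 5464) within 5 kb of one. The choice of near-end peaks by position therefore favours such overlap, and these tests cannot set overlap apart from shared position. The part of that density in the overlap was not tested.

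The 20 overlapping peaks included 8 at 8 p53 list genes: Bax, Phlda3, Rps27l, Ccng1, Trp53inp1, Plk2, Slc19a2 and Ephx1. Another 3 were at ribosomal or histone genes, Rps19, Rpl22 and H3c14. Regulators of transcription and RNA were Ythdc1 (a nuclear reader of methylated RNA), Hcfc2 (a host cell factor), Zfp110 and Zfp809 (zinc finger proteins). The remainder were Rabl2 (a small GTPase), Pnpla3 (a lipase), Il1rap (the interleukin-1 receptor accessory protein), Gfus (an enzyme of GDP-fucose synthesis) and Nup210 (a nuclear pore protein). Shared bases numbered 9 to 354, with a median of 215, and the summits lay 2 to 389 bp apart, with a median of 126. At Bax the 2 summits were 9 bp apart, at Ccng1 17 bp and at Rps19 21 bp. At Phlda3 they were 230 bp apart and at Ephx1 389 bp.

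The folds of the H3K4me3 partners ran from 1.27 to 4.78 with a median of 1.51, against a median of 1.57 for all H3K4me3 peaks near gene ends. The highest, 4.78 at Ephx1, rested on 57 fragments over a background of 11.1. At Bax the H3K4me3 peak had 215 fragments over 140 and a fold of 1.53, and at Plk2, the lowest, 194 over 152 and 1.27. Of the 20 p53 peaks, 14 lay within 1 kb of a gene end. Cdkn1a and Bbc3 had an H3K4me3 peak within 5 kb that their p53 peak did not overlap. Over genes, 161 of the 596 with a near-end p53 peak also had an H3K4me3 peak within 5 kb (27.0%), against 4541 of the 21291 others (21.3%). Among the p53 list genes it was 11 of the 13 with a WT p53 peak and 29 of the 60 without.

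**Figure D4:**
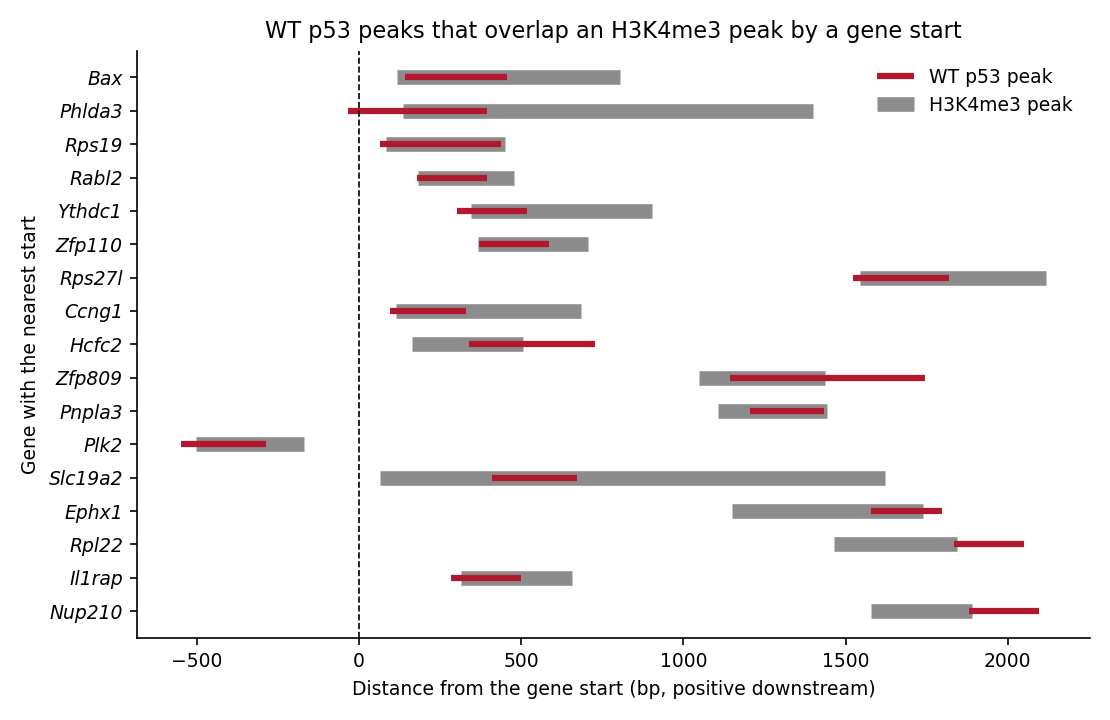
Extent of the 17 WT p53 peaks (thin red bars) that overlap an H3K4me3 peak (wide grey bars) nearest a gene start, as the distance from that start in bp, positive downstream, ordered by p53 fold with the highest at the top. All but the pair at Plk2 lie mainly downstream of the start, up to about 2 kb into the gene.

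Overlap with the K17KO p53 list was rare. It was found for 5 of 502 near-end WT peaks (0.996%, 0.324 to 2.31%) and 4 of 2407 distal WT peaks (0.166%, 0.0453 to 0.425%), an odds ratio of 6.04 (1.29 to 30.5; Fisher's exact test, adjusted p = 0.0129), against 0.309% of the list. The 5 were at Bax, Rps19, Rps27l, Cdc34 (a ubiquitin-conjugating enzyme gene) and Ndnf (a neurotrophic factor gene). The K17KO peak at Rps27l had 18 fragments over 1.91 and a fold of 6.53, and the WT peak 18 over 3.21 and 4.51. At Bax the K17KO peak had 17 fragments over 2.87 and a fold of 4.66, and the WT peak 19 over 1.98 and 6.70. At Rps19 the K17KO peak had 18 fragments over 2.87 and the WT peak 31 over 3.97. Summits lay 3 bp apart at Rps27l, 16 at Ndnf, 44 at Bax, 60 at Rps19 and 332 at Cdc34. K17KO p53 peaks are themselves dense at gene ends, with 37.9% of them (417 of 1101) within 5 kb of one. The test cannot set overlap apart from this shared position, and the part of that density in the overlap was not tested.

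By gene, 26 of the 596 genes with a near-end WT p53 peak (4.36%) also had a K17KO p53 peak within 5 kb, which is 5.01% of the 519 genes near a K17KO peak. K17KO peaks were near 2.37% of all protein-coding genes. Of the 73 p53 list genes, 3 had a K17KO peak within 5 kb: Bax, Rps27l and Siva1. Folds of separate lists were not tested against each other. Without the 14 peaks at p53 list genes the overlap was 3 of 488 near-end and 4 of 2407 distal peaks (adjusted p = 0.118, Fisher's exact test), and the difference no longer passed the threshold. Nor did it among peaks with a q-value of at most 0.01, with 3 of 62 near-end and 2 of 297 distal peaks (adjusted p = 0.0759, Fisher's exact test).

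Fewer near-end than distal peaks had a fold at or above the median of the list, and more were wide. Both had a median of 7 fragments at the summit, and the median fold was 3.94 near ends and 4.02 in distal peaks. A fold at or above the list's median was held by 47.4% of near-end and 55.2% of distal peaks (odds ratio 0.733, 0.601 to 0.892; Fisher's exact test, adjusted p = 0.00488), with 53.8% in the list. A q-value of at most 0.1 was held by 55.2% and 61.4% (0.775, 0.636 to 0.946; Fisher's exact test, adjusted p = 0.0129), with 60.3% in the list. At 0.01 the shares were 12.4% and 12.3% (odds ratio interval 0.735 to 1.35; Fisher's exact test, adjusted p = 1), with 12.3% in the list. Near-end peaks were more often wider than 216 bp, the narrowest width, at 54.6% and 48.3% (1.29, 1.06 to 1.57; Fisher's exact test, adjusted p = 0.0129), with 49.4% in the list. The fold and width differences did not pass with a limit of 10 kb (adjusted p = 0.205 for each, Fisher's exact test) or among the 277 near-end and 1477 distal peaks within the q-value limit of 0.1 (0.0704 and 0.0601). For the q-value difference itself, 1 kb gave an adjusted p of 0.0549 by Fisher's exact test, and it did not pass at 10 kb either.

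The background under the peaks moved with these shares. Near-end peaks had a median background of 1.02 fragments and distal peaks 0.992, and 21.1% of near-end and 31.0% of distal peaks stood at the lowest background in the list. A background above 1.5 was found for 12.2% of near-end and 5.86% of distal peaks, and 8 or more fragments for 45.4% and 41.3%. Start peaks had 8 or more fragments in 52.3% of cases and 3′-end peaks in 35.1%, with a background above 1.5 in 16.8% and 7.03%. The part of the background in the fold and q-value differences was not tested. Within the near-end peaks, fold was nearly unrelated to distance from the gene end (Spearman's rho 0.012 over 502 peaks of 1 list, a description).

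**Figure D5:**
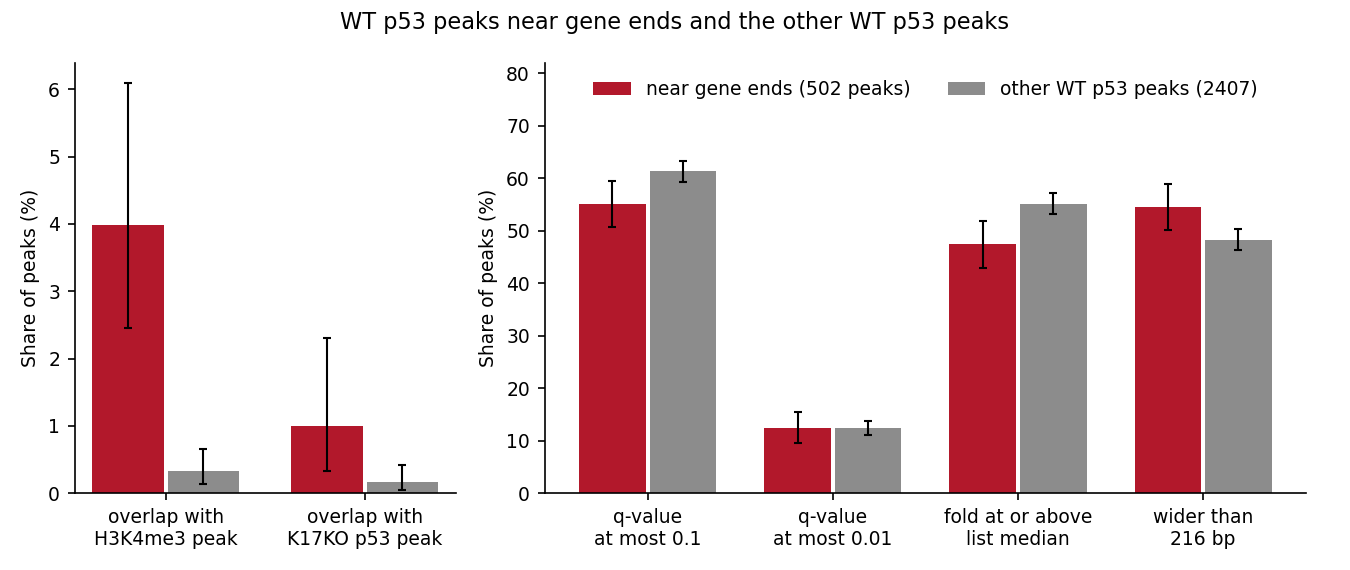
Share of peaks in percent for the 502 near-end WT p53 peaks (red, left of each pair) and the 2407 distal ones (grey), with Clopper-Pearson 95% intervals; the left panel has its own scale. The red bar is the higher for overlap with H3K4me3 (3.98% against 0.332%) and K17KO peaks, and the lower for fold at or above the list median (47.4% against 55.2%).

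The highest fragment numbers stood over high backgrounds. Only 9 near-end peaks had a background above 4 fragments, at Tmem125, 9230019H11Rik, Sfi1, Duxf3, Apool, Hjurp, Gm40363, 4931408C20Rik and A530032D15Rik. The peak at Tmem125, 2418 bp before its start, had 114 fragments over 34.5 and a fold of 3.24. That at 9230019H11Rik had 105 over 50.6 and a fold of 2.06, and that at Sfi1 70 over 39.7 and 1.75, the lowest fold of the 502. Leaving all such peaks out of both groups, H3K4me3 overlap was found for 20 of 493 near-end and 4 of 2378 distal peaks, and the odds ratio was 25.1.

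Outside the p53 lists, near-end peaks touched 6 of 248 list genes (2.42%), close to the share over all protein-coding genes. In the dermal fibroblast list 3 of 20 genes had one: the collagen genes Col3a1 (fold 5.02, 9 fragments) and Col6a1 (3.06, 6 fragments), each inside the 3′ end, and Thy1 (4.03, 7 fragments), a cell surface marker. The pancreatic gene Cpa1 (4.16), the H3K4 methyltransferase subunit gene Ash2l (3.86) and Cdc34 (3.87, 12 fragments) were the only others. None of the basal keratinocyte (13 genes), suprabasal (19), hair follicle (26), endothelial (10), immune (12), immediate early (17) or DNA damage signalling (25) genes had one. Lists of 10 to 26 genes are too short for an absence to be read against a share of 2.72%. By gene name, 13 of 1110 olfactory receptor genes (1.17%), 17 of 400 Zfp genes (4.25%), 3 of 84 ribosomal protein genes, 2 of 53 keratin genes and 4 of 44 collagen genes had a near-end peak, against 2.72% of all genes.

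Most near-end peaks belonged to 1 gene. Of the 502, 409 were within 5 kb of 1 gene, 81 of 2 genes and 12 of 3 or 4, and 296 lay inside a protein-coding gene. Only 13 genes had 2 near-end peaks and none had more: 4930522L14Rik, A530032D15Rik, BC048562, Chchd4, Fyb2, Glt6d1, Klhdc8b, Loxl1, Mapk13, Nod2, Plk2, Prss35 and Tmem43. The peaks of Chchd4 are those of Tmem43, and those of Klhdc8b are those of BC048562. At Loxl1, which encodes a lysyl oxidase-like enzyme that crosslinks elastin, the folds were 4.50 and 4.81. Plk2 was the only gene of the p53 lists among them.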

How the data were processed

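The 3 peak lists used (K17KO p53, WT p53, H3K4me3) were each the authors' deposited list with no header or sample name. Bowtie2 2.2.5, SAMtools 1.7 and MACS2 2.1.2 with build mm10 are named in the submitters' processing notes, without roles; for the call threshold, the control and the libraries pooled nothing is stated. The deposited values were the peak score, the fold (a ratio), and −log10 p and −log10 q. They were tested only within a list, and values of separate lists are printed side by side without a test. Fragments and background at a summit were worked out from the deposited fold and p-value as whole numbers under a Poisson tail, within 0.001 for 100.0% of peaks. No values per sample were used here, so nothing has a replicate error and depth per library is unknown.

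Distances ran from peak midpoints to gene ends of a RefSeq table (GRCm38.p6) without strand or exons; strand came from RefSeq promoter windows, known for 79.9% of protein-coding genes, so no exon, intron or untranslated region is named. Overlap meant at least 1 bp. Shares were compared with two-sided Fisher's exact tests (SciPy 1.17.1, Python 3.11.15) with Benjamini-Hochberg adjustment over 6 shares at 0.05, and checked on simulated data. Intervals are at 95%. Named peaks were the 10 highest by fold and by −log10 p, those overlapping H3K4me3 or K17KO peaks, those at list genes, genes with 2 peaks, and 8 genes always reported. Near-end peaks were chosen by position alone, but that rule and the gene lists were set with earlier results of these data known.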

Additional observations from a re-analysis of the deposited data

How the results depend on the processing

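Overlap with H3K4me3 kept its direction and its call under all 12 alternatives, with near-end minus distal differences of 2.13 to 8.24 percentage points. The K17KO overlap kept them under 10 of 12; its difference was 4.17 points with a q-value of at most 0.01 and 0.449 without peaks at p53 list genes, and neither passed. The difference in q-values of at most 0.1 did not pass with a limit of 1 kb (-8.25 points) or 10 kb (-1.43). The fold difference did not pass at 10 kb (-3.13), with peaks of a q-value of at most 0.1 (-3.99) or 0.01 (-2.41), or in the upper part of the list by −log10 p (-1.61). Under the same 4 settings the width difference did not pass either (3.26, 6.98, 11.1 and 6.63 points). The share with a q-value of at most 0.01, which did not differ beyond counting error, changed sign on autosomes alone (-0.0442) and without backgrounds above 4 (-0.136). The cause was not tested, and stricter settings hold fewer peaks.

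The number of near-end peaks was 160 at 1 kb, 820 at 10 kb, 277 and 62 at the q-value limits, 253 in the upper part of the list and 259 at starts alone. Genes with a peak numbered 174, 1059, 334, 76, 302 and 277 under these settings. The p53 list genes among them numbered 8 at 1 kb and 5 at the stricter q-value limit, and 10 to 14 under the others. A share that its own filter fixes was not computed. The settings that leave out peaks at p53 list genes or of high background were added after the data were seen. No paired analysis was possible because the lists name no replicate. Depth limits these results: the median near-end peak rests on 7 fragments.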
